A study of Mus musculus with 2 samples.

Results

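The VEGF and angiopoietin signals described here are 7 genes, taken by symbol from the 32285 genes counted: the ligands Vegfa, Angpt1 and Angpt2 and the receptors Kdr, Flt1, Tek and Tie1. All 7 were found under 1 identifier each. They were read in marker-gated endothelial, mural, stromal and myeloid cells, and beside them in lymphoid and mast cells, taken from a defect in mouse cranial bone that had been filled with a cell-free scaffold. The study compared 2 scaffolds, named Gel100 and Gel50_CS50. The labels do not explain these names.

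Every mouse was a female Balb/c aged 6 weeks with a drilled defect 3.5 mm across, from which the periosteum had been removed. The scaffolds were taken out after 1 week, digested with Liberase, chondroitinase and hyaluronidase, freed of red cells and sorted for viable cells, of which about 10000 were loaded. Each scaffold is represented by 1 library made from the pooled cells of 5 mice. No animal can be told from another, so no difference between scaffolds was tested, and every interval below covers counting error only. No unfilled or unoperated defect is among the samples.

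VEGF-A, the product of Vegfa, is secreted by cells short of oxygen and by activated macrophages and stromal cells, and drives endothelial growth, sprouting and permeability through VEGFR2, the product of Kdr. VEGFR1, the product of Flt1, binds the same ligand tightly but signals weakly, and its soluble form holds ligand away from VEGFR2. It is also carried by monocytes. Angiopoietin 1, made by perivascular and mesenchymal cells, activates the endothelial receptor TIE2, the product of Tek, and steadies vessels. Angiopoietin 2 can oppose it where vessels are remodelled, and TIE1 is an endothelial partner of TIE2 that modulates its signalling. In bone repair, vessels grow into the defect ahead of mineralised tissue.

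The 2 libraries held 7845 and 7515 barcodes (Gel100 first here and throughout) with 108847835 and 150311308 unique molecular identifiers (UMIs, 1 per captured RNA molecule), and 24 barcode sequences were in both. After filtering, 7601 and 7206 cells remained with median depths of 12707 and 16509.5 UMIs, and 21.6% and 4.51% of cells lay under 3000 UMIs. Clusters were placed in classes by fixed markers that include none of the 7 genes. The endothelial class held 64 and 56 cells, the mural class (pericytes and smooth muscle) 28 and 51, the stromal class (fibroblasts and other mesenchymal cells) 271 and 708, and the macrophage and monocyte class 3773 and 3183. Levels are given as CPM, the UMIs of a gene per 1000000 UMIs summed over the cells of a class, and differences as the log2 ratio of Gel50_CS50 over Gel100 with an exact binomial 95% interval.

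The levels of the markers that named the classes are given next. They describe the classes and are not a test of the labels, which rest on them. All 12 endothelial markers were detected in at least 10% of endothelial cells, a share counted over the cells of both libraries and not for each library. They summed to 6567 and 7073 CPM, and the lowest of them stood at 196 CPM (Mmrn2) in Gel100 and 212 CPM (Sox18) in Gel50_CS50. All 12 mural markers were detected in mural cells, at 18480 and 10824 CPM. Depth differed most in the endothelial class: its median cell held 2015.5 UMIs in Gel100 and 18619.5 in Gel50_CS50, and 42 and 7 of its cells lay under 3000 UMIs. Stromal markers summed to 60.6 and 2973 CPM in it, and 3 of the 56 Gel50_CS50 barcodes held 3611 of the 3765 stromal marker UMIs and 19.1% of all UMIs of the class. Lymphatic markers lay almost wholly in 1 of the 64 Gel100 cells, which held 70 of 73 such UMIs. Endothelial values are therefore also given without these barcodes, on 63 and 53 cells. In mural cells the stromal markers summed to 5690 and 14415 CPM, against 43733 and 46616 CPM in stromal cells.

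**Figure D1:**
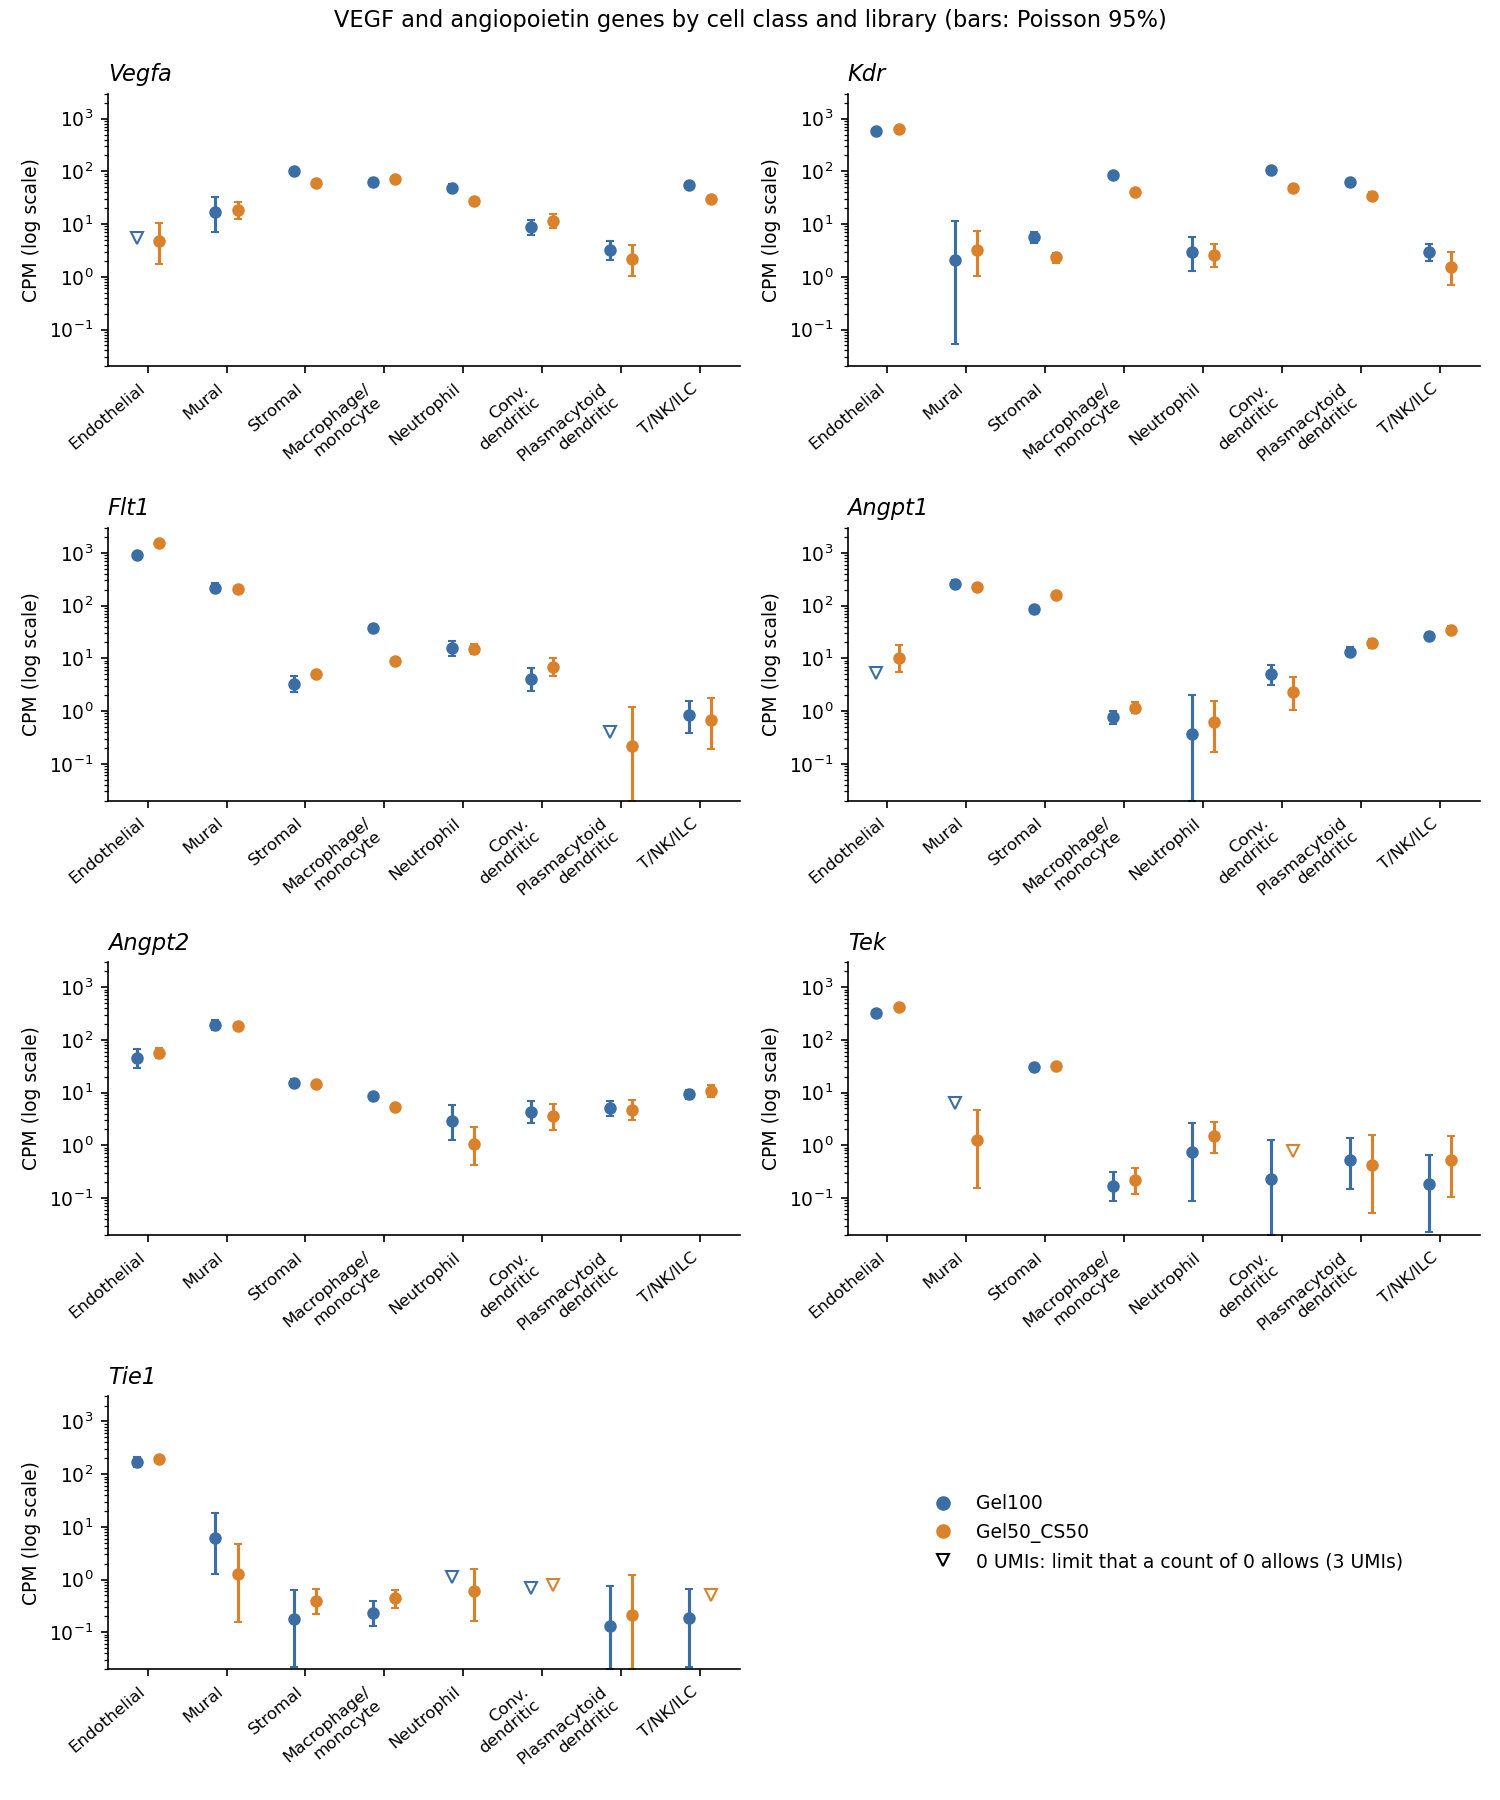
Level of each of the 7 genes (CPM, log scale) in 8 cell classes of the Gel100 and Gel50_CS50 libraries, with exact Poisson 95% intervals, and with open triangles at the limit that a count of 0 allows. Kdr, Flt1, Tek and Tie1 peaked in endothelial cells, Angpt1 and Angpt2 in mural cells, and Vegfa in stromal cells of Gel100 and macrophages of Gel50_CS50.

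Vegfa (chr17:46016993-46032369 in mm10, minus strand) was detected in stromal cells, macrophages, neutrophils and lymphoid cells and was almost missing from endothelial cells, which carry the highest levels of its receptors. Endothelial cells held 0 Vegfa UMIs in Gel100, which allows up to 5.35 CPM, and 6 UMIs (4.74 CPM) in Gel50_CS50, of which 2 were left without the 3 barcodes high in stromal markers. Stromal cells held 100.2 CPM (interval 94.5 to 106) in Gel100 and 60.1 CPM (57.6 to 62.6) in Gel50_CS50. Macrophages and monocytes held 61.9 CPM (60.03 to 63.9) and 72.0 CPM (70.0 to 74.1). The order of these 2 sources thus turned over between the libraries: stromal cells stood 1.62-fold (1.51 to 1.73) above macrophages in Gel100 and at 0.834 (0.793 to 0.877) of their level in Gel50_CS50.

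Between scaffolds, stromal Vegfa was lower in Gel50_CS50 by 0.74 on the log2 scale (log2 ratio -0.74, interval -0.84 to -0.63), a difference of over 1.5-fold. Among the 7001 genes averaging 20 CPM or more in stromal cells, 2.69% were lower and 1.39% were higher in Gel50_CS50 by over 1.5-fold. Macrophage Vegfa differed by less, with a log2 ratio of 0.22 (0.16 to 0.28), which did not reach 1.5-fold, and it was 0.043 (-0.04 to 0.12) when called doublets were kept. The share of macrophages with a Vegfa UMI was 32.8% and 38.1%, and 13.7% and 15.5% after each cell was thinned to 3000 UMIs. In conventional dendritic cells, a class low in Vegfa, the thinned share was 2.37% and 2.23%, at median depths of 16769 and 21218 UMIs. The part of stray RNA in these shares was not tested.

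Vegfa varied among the macrophage clusters more than between the scaffolds. Cluster 1 (led by the clotting factor gene F10 and the acute phase gene Saa3) held 107 and 108 CPM, and cluster 9, left unnamed because Pf4 and none of the class markers led it (Arg1 and Stfa3 were among its leading genes), held 113 and 98.7 CPM. Cluster 2, led by the complement genes C1qa and C1qc, held 34.7 and 39.1 CPM, so that cluster 1 stood 3.09-fold (2.74 to 3.48) and 2.75-fold (2.41 to 3.14) above it. Cluster 9 counted 66 cells in Gel100 and 650 in Gel50_CS50, and with it the class ratio was 0.30. The highest value in any macrophage cluster was 117 CPM in the Gel50_CS50 cells of cluster 7, whose leading genes are the interferon-induced Rsad2 and Ifit2, against 83.2 CPM in Gel100 (log2 ratio 0.49, 0.31 to 0.67).

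Lymphoid and granulocytic Vegfa also differed between libraries. T, NK and innate lymphoid cells together held 55.6 CPM (51.2 to 60.2) and 29.7 CPM (25.4 to 34.5), a log2 ratio of -0.91 (-1.16 to -0.66). In this class 2.01% of genes were lower by over 1.5-fold. Within it, NK cluster 10 (led by the granzyme gene Gzma and by Gzmb) held 90.2 and 59.3 CPM and T cell cluster 16 held 15 and 2 UMIs (8.36 and 2.01 CPM), so the NK cells carried most of the signal. Cluster 10 counted 494 and 214 cells, and within it the ratio was -0.61 (-0.89 to -0.33). In NK cluster 18 (207 and 30 cells) Vegfa was at 40.9 and 41.7 CPM, a ratio of 0.03 (-0.62 to 0.64). Neutrophils held 48.6 CPM (40.7 to 57.7) and 27.3 CPM (23.5 to 31.6), a log2 ratio of -0.83 (-1.16 to -0.50), in a class where 12.3% of genes were lower by over 1.5-fold. The neutrophils sat in different clusters in each library, with 531 and 846 cells in cluster 0 and 33 and 525 in cluster 13. Within cluster 0 the ratio was -0.60 (-0.99 to -0.22), and within cluster 13 it was -2.61 (-3.42 to -1.73), from 17 and 53 UMIs.

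Angpt1 (chr15:42424723-42676977, minus strand, overlapping Gm17473 on the plus strand) was highest in mural cells and came next in stromal cells, leaving aside the 14 and 36 mast cells or basophils (371 and 228 CPM, from 17 and 28 UMIs). Mural cells held 257 CPM (214 to 307; 124 UMIs) in Gel100 and 230.3 CPM (207 to 255; 358 UMIs) in Gel50_CS50. Stromal cells held 87.2 CPM (81.8 to 92.8) and 159 CPM (155 to 163). Mural cells stood 2.95-fold (2.43 to 3.56) above stromal cells in Gel100 and 1.45-fold (1.30 to 1.62) above them in Gel50_CS50, so the gap narrowed while the order held. Endothelial cells held 0 UMIs in Gel100 and 13 in Gel50_CS50, 12 of which lay in 1 cell. None was left in either library without the barcodes high in markers of another type.

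Stromal Angpt1 was higher in Gel50_CS50 with a log2 ratio of 0.86 (0.77 to 0.96), past 1.5-fold and opposite in sign to stromal Vegfa. The mural ratio was -0.16 (-0.46 to 0.15) and its interval crossed 0. Of the 3 members measured at 20 CPM or more in stromal cells, 1 was higher (Angpt1) and 1 was lower (Vegfa) by over 1.5-fold, in a class where 4.07% of genes went beyond 1.5-fold in either direction. None of the 3 measured in mural cells (Angpt1, Angpt2 and Flt1) did so, where 24.7% of all genes did.

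Outside the mesenchyme, Angpt1 was seen in NK cells and plasmacytoid dendritic cells. NK cluster 10 held 49.7 and 82.7 CPM (log2 ratio 0.73), with a UMI in 14.98% and 21.5% of its cells. Plasmacytoid dendritic cells, which make type I interferon, held 13.4 CPM (10.9 to 16.3) and 19.3 CPM (15.5 to 23.8). Macrophages held 0.768 and 1.17 CPM and neutrophils 1 and 4 UMIs, the lowest levels of any class with over 100 cells.

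Angpt2 (chr8:18690263-18741562, minus strand, overlapping Mcph1 on the plus strand) was highest in mural cells, above the endothelium that is its best known source. Mural cells held 191 CPM (154 to 234) and 183 CPM (162 to 205), and endothelial cells 44.6 CPM (28.8 to 65.8; 25 UMIs) and 56.8 CPM (44.5 to 71.6; 72 UMIs). The mural level was 4.28-fold (2.73 to 6.95) and 3.21-fold (2.47 to 4.22) the endothelial one, and 12.4-fold and 12.3-fold the stromal level of 15.4 and 14.8 CPM. Among mural cells with at least 3000 UMIs, 18 of 18 and 45 of 51 had an Angpt2 UMI, against 9 of 22 and 15 of 49 endothelial cells, at median depths of 23017 and 25588 UMIs for mural and 22421.5 and 20042 UMIs for endothelial cells.

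None of these Angpt2 levels was clearly different between the scaffolds. The log2 ratio was -0.06 (-0.41 to 0.29) in mural cells, -0.05 in stromal cells and 0.35 (-0.32 to 1.07) in endothelial cells, or 0.71 (-0.00 to 1.47) without the barcodes high in markers of another type. Macrophages held 8.50 CPM (7.80 to 9.24) and 5.40 CPM (4.85 to 6.01), with a ratio of -0.65 (-0.85 to -0.46). The class ratio was not shared by all of its clusters. It was -0.77 (-1.13 to -0.41) in cluster 4 and -0.46, -0.39 and -0.81 in clusters 1, 2 and 5. In clusters 6, 7, 8 and 12 it was 0.32, 0.09, 0.00 and 0.50. Only in cluster 4 was the interval clear of 0, and cluster 12 counted 587 and 54 cells. The macrophage class lay far below the mural one, and its highest clusters were cluster 4 (18.3 and 10.8 CPM), which carries the osteoclast genes Ctsk and Atp6v0d2, and cluster 12 (17.8 and 25.1 CPM). As a whole it did not exceed T, NK and innate lymphoid cells, which held 9.33 and 10.7 CPM. It stood above conventional dendritic cells (4.36 and 3.62 CPM). The part of stray RNA in these levels was not tested.

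**Figure D2:**
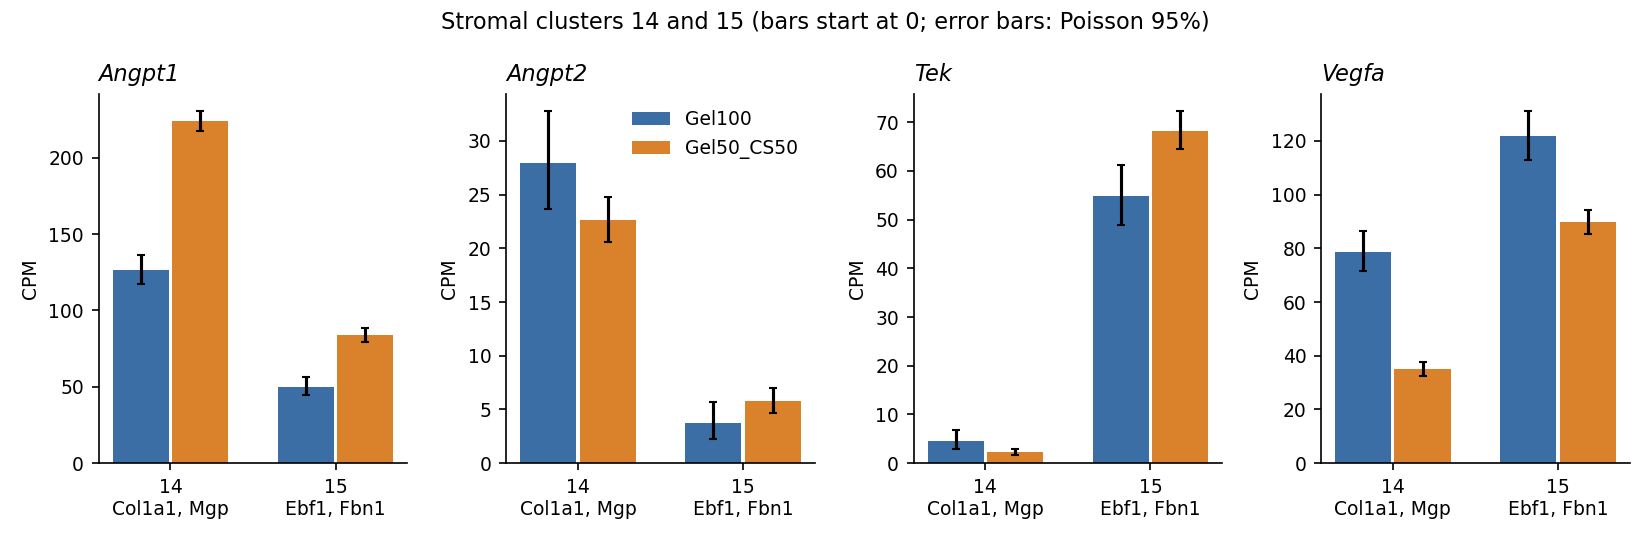
Levels (CPM, bars from 0, exact Poisson 95% intervals) of Angpt1, Angpt2, Tek and Vegfa in stromal clusters 14 and 15 of each library. In both libraries Angpt1 and Angpt2 stood higher in cluster 14, and Tek and Vegfa higher in cluster 15.

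The stromal class split into parts that carried different members of the pathway. Cluster 14 (137 and 357 cells, led by Col1a1, Col1a2 and Mgp) held 127 and 224 CPM of Angpt1, against 50.2 and 83.8 CPM in cluster 15 (103 and 297 cells, led by Ebf1, Fbn1, Dcn and Tnfaip6 beside collagens). Angpt2 followed the same split, with 27.95 and 22.6 CPM in cluster 14 and 3.70 and 5.75 CPM in cluster 15. Vegfa ran the other way, with 78.7 and 35.1 CPM in cluster 14 and 122 and 89.7 CPM in cluster 15. The scaffold difference was seen in clusters 14 and 15 each by itself: Angpt1 was higher in Gel50_CS50 in both (log2 ratios of 0.82 and 0.74) and Vegfa was lower in both (-1.17 and -0.44). The remaining stromal cluster, 24 (31 and 54 cells), held only 5 and 7 Angpt1 UMIs (-0.20, -2.07 to 1.80) and 7 and 2 Vegfa UMIs.

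Angpt1 and Vegfa were often seen in the same cell. In cluster 14, among cells with at least 3000 UMIs, 87 of 118 and 321 of 355 had an Angpt1 UMI, and 56 and 180 of these also had a Vegfa UMI. Vegfa was seen in 64.4% and 56.1% of the cells with Angpt1 and in 41.9% and 44.1% of those without it. Depth was not matched between cells with and without Angpt1, and its part in this gap was not tested. Cell to cell, Angpt1 in cluster 14 had a median of 0.856 and 1.43 UMIs per 10000, with upper quartiles of 1.88 and 3.20 and a highest cell of 11.98 and 22.9. The upper quartile of Gel50_CS50 was thus above that of Gel100, though cells at 0 remained in both.

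Of the receptors, Kdr lies at chr5:75932827-75978458 and Flt1 at chr5:147561604-147726011, both on the minus strand, and Tek lies at chr4:94739289-94874976 on the plus strand and Tie1 at chr4:118471191-118490061 on the minus strand. Their proximal promoters are shown because all 4 genes peaked in the same class, whose genes are commonly bound by ETS and GATA factors. The windows run from 250 bases before to 50 after the RefSeq start (GRCm38.p6, written 5′ to 3′ on the strand of the gene), and the capitals mark the letters AGGAAG or CTTCCT (the ETS-type core and its reverse) and AGATAA or TTATCT (the GATA-type core and its reverse). Both strands were searched, and no match of one core overlapped a match of the other. The table matched 5 of the 7 members, and Angpt1 and Angpt2 had no entry.
Flt1, chr5:147725962-147726261: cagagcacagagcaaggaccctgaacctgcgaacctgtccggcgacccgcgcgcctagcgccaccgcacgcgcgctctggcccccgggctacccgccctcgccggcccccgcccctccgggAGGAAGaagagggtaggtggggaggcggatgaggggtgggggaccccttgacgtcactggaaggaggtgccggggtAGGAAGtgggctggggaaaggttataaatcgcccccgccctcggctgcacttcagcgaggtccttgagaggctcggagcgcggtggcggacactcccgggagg
Tie1, chr4:118489800-118490099: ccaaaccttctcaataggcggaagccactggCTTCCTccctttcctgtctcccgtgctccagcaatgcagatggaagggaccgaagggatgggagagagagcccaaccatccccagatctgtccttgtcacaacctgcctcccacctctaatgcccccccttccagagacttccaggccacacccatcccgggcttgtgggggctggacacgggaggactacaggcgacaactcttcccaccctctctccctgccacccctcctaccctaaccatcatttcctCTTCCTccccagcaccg
Tek, chr4:94739039-94739338: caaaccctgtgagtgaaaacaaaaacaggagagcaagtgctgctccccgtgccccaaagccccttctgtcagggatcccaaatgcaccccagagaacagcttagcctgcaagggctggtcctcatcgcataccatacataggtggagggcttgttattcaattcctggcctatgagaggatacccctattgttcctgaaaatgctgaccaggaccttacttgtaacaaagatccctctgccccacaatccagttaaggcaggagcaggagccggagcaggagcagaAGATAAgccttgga
Kdr, chr5:75978406-75978705: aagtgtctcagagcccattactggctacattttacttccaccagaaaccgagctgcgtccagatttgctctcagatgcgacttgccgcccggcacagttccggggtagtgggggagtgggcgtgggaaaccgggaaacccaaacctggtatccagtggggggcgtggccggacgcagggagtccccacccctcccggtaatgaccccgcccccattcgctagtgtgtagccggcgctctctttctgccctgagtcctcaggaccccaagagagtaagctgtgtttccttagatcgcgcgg

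Flt1 and Tie1 each held 2 ETS-type cores in these windows, Tek held 1 GATA-type core and Kdr held neither. Vegfa, which was almost missing from endothelial cells and is not shown, also held 1 GATA-type core in 1 of its 2 windows. Across the 32851 RefSeq promoter windows of the same length, 35.4% held an ETS-type core and 11.2% a GATA-type core. A match of letters is not a binding site, and no binding was measured here.

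Kdr, the main signalling receptor for VEGF-A, was highest in endothelial cells and was also seen throughout the macrophages and dendritic cells. Endothelial cells held 571 CPM (510 to 637; 320 UMIs) in Gel100 and 639.5 CPM (596 to 685; 810 UMIs) in Gel50_CS50. Their log2 ratio was 0.16 (-0.02 to 0.36), and 0.23 (0.03 to 0.43) without the barcodes high in markers of another type, and 0.08 (-0.12 to 0.27) in cells with at least 3000 UMIs. These 3 values stayed under 1.5-fold, but with each cell weighted equally, whatever its depth, the ratio was 0.79 and passed it. Mural cells held 1 and 5 UMIs, and stromal cells 5.61 and 2.33 CPM.

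Macrophage Kdr was 85.0 CPM (82.8 to 87.3; 5423 UMIs) in Gel100 and 41.1 CPM (39.6 to 42.8; 2612 UMIs) in Gel50_CS50. Conventional dendritic cells held 106 CPM (96.5 to 116) and 48.7 CPM (42.0 to 56.1), and plasmacytoid dendritic cells 64.1 CPM (58.5 to 70.1) and 34.8 CPM (29.6 to 40.6). All of these myeloid values were lower in Gel50_CS50, with log2 ratios of -1.05, -1.12 and -0.88. The share of genes lower by over 1.5-fold in these classes was 4.06%, 6.63% and 1.23% of those measured.

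Lymphoid cells of the same libraries, a class low in Kdr, are given for comparison, and the part of stray RNA in macrophage Kdr was not tested. T, NK and innate lymphoid cells held 2.96 and 1.55 CPM of Kdr, so macrophages stood 28.8-fold (20.4 to 42.1) and 26.5-fold (13.9 to 58.0) above them. A Kdr UMI was seen in 45.2% and 31.1% of macrophages, and after thinning to 3000 UMIs in 18.5% (17.2 to 19.8) and 9.41% (8.42 to 10.5), against 0.786% and 0.611% of lymphoid cells. The endothelial marker Cdh5 was at 1.87 and 1.65 CPM in the same macrophages, against 804 and 835 CPM in endothelial cells, and the 12 endothelial markers summed to 71.3 and 63.3 CPM, most of it Pecam1 at 42.8 and 40.1 CPM, a gene that leukocytes also express.

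Within the endothelium Kdr stood 6.71-fold (5.98 to 7.51) above macrophages in Gel100 and 15.5-fold (14.3 to 16.8) above them in Gel50_CS50. The larger step in Gel50_CS50 came with a lower macrophage level. Because macrophages outnumber endothelial cells, they nonetheless held 77.7% and 62.0% of the Kdr UMIs of a library, against 4.58% and 19.2% in endothelial cells.

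**Figure D3:**
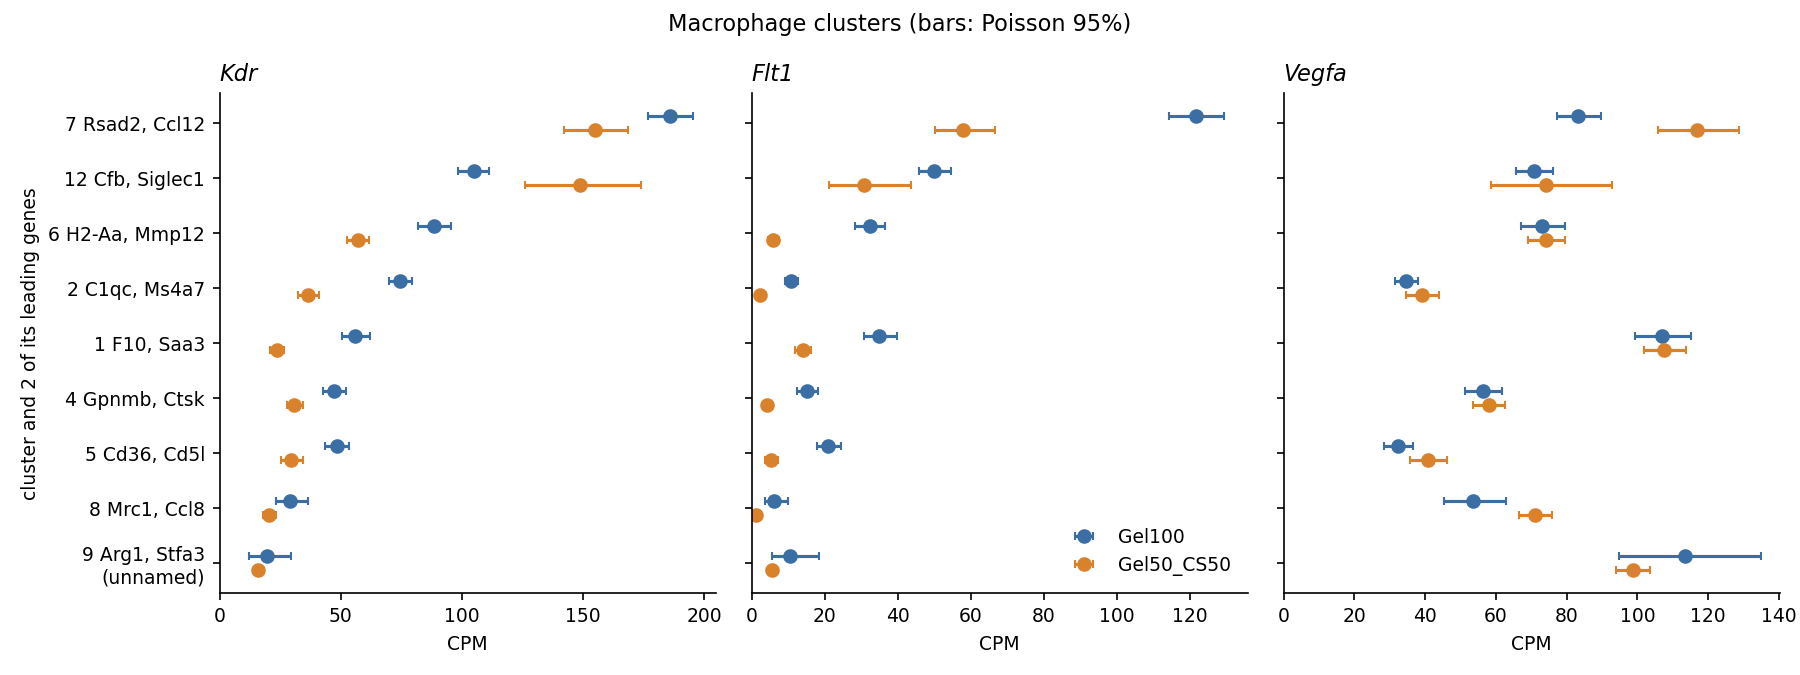
Levels (CPM, linear scale, exact Poisson 95% intervals) of Kdr, Flt1 and Vegfa in 8 macrophage clusters and in unnamed cluster 9, each labelled with 2 of its leading genes. Flt1 was lower in Gel50_CS50 in all 9 clusters, Kdr was lower in all but cluster 12, and the log2 ratios of Vegfa ran only from -0.20 to 0.49.

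The macrophage clusters differed in Kdr by more than the scaffolds did. Cluster 7 (interferon-induced genes) held 186 CPM (177 to 196) and 155 CPM (142 to 169), and cluster 8 (led by the mannose receptor gene Mrc1 and by Ccl8) held 29.3 and 20.4 CPM, a step of 6.36-fold (5.08 to 8.05) and 7.60-fold (6.53 to 8.87). Cluster 12, led by Cfb, Siglec1 and Ccl5 among others, held 105 and 149 CPM, the only cluster with more Kdr in Gel50_CS50. In the others Kdr ran from 88.5 and 57.1 CPM in cluster 6 to 19.5 and 15.96 CPM in cluster 9. The log2 ratios of the 9 clusters ran from -1.25 in cluster 1 to 0.50 in cluster 12, and that of cluster 9 had an interval crossing 0.

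Both clusters richest in Kdr were ones that Gel100 held more of. Cluster 7 counted 585 and 211 cells and cluster 12 counted 587 and 54, while cluster 8 counted 176 and 613. When both libraries were given the same cluster shares, the macrophage Kdr ratio moved from -1.05 to -0.45, which remained negative but no longer reached 1.5-fold. Adding cluster 9 to the class moved it to -1.22.

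Among conventional dendritic cells, Kdr was concentrated in the cluster led by Ccr7, Il12b and Fscn1, genes of dendritic cells on their way to lymph nodes. This cluster held 175 CPM and 71.6 CPM, against 41.7 and 17.7 CPM in the other conventional dendritic cluster, a step of 4.18-fold (3.33 to 5.31) and 4.05-fold (2.71 to 6.24).

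Flt1, which encodes VEGFR1 and its soluble form, differed between scaffolds in opposite directions in endothelial cells and macrophages. The counts do not separate the full-length from the soluble transcript. Endothelial cells held 922 CPM (844 to 1005; 517 UMIs) in Gel100 and 1526 CPM (1459 to 1596; 1933 UMIs) in Gel50_CS50, the highest level of any of the 7 genes in any class. Macrophages held 38.0 CPM (36.5 to 39.6; 2426 UMIs) and 8.96 CPM (8.24 to 9.73; 569 UMIs). The endothelial level was 24.2-fold (22.0 to 26.7) the macrophage one in Gel100 and 170.3-fold (155 to 187) in Gel50_CS50.

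The endothelial Flt1 ratio was 0.73 (0.59 to 0.87), higher in Gel50_CS50. It was the only 1 of 5 members measured in endothelial cells to pass 1.5-fold, in a class where 24.6% of 7092 genes went beyond 1.5-fold, with 9.69% higher and 15% lower. Without the barcodes high in markers of another type the levels were 968 and 1640 CPM and the ratio 0.76 (0.62 to 0.90), where Angpt2 at 0.71 passed 1.5-fold as well. Kdr (0.79) and Tek (0.66) passed it too with cells weighted equally, and Tek (0.68) with 50 principal components. In cells with at least 3000 UMIs the Flt1 ratio was 0.63 (0.49 to 0.78). Per cell at that depth, Flt1 had a median of 8.29 and 12.9 UMIs per 10000, with quartiles of 4.33 and 19.5 in Gel100 and 8.66 and 26.8 in Gel50_CS50, so the middle ranges of cells overlapped.

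The macrophage Flt1 ratio was -2.09 (-2.22 to -1.95), lower in Gel50_CS50. Flt1 and Kdr were the 2 of 3 members measured in macrophages that were lower by over 1.5-fold, where 6.06% of genes went beyond it in either direction. With the same cluster shares in both libraries, Flt1 (-1.36) stayed beyond it and Kdr (-0.45) did not. The share of macrophages with a Flt1 UMI was 20.9% and 7.32%, and 8.63% and 2.83% after thinning. Lymphoid cells with a Flt1 UMI made up 0.639% and 0.592% before thinning, at median depths of 8493.5 and 9910 UMIs against 16430 and 18277 UMIs in macrophages. Cluster 7 again held the most Flt1, at 122 and 58.0 CPM, followed in Gel100 by cluster 12 (50.05 CPM), cluster 1 (35.0 CPM) and cluster 6 (32.3 CPM).

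All 9 macrophage clusters held less Flt1 in Gel50_CS50, cluster 9 included. Their log2 ratios ran from -2.45 in cluster 6 to -0.70 in cluster 12, and that of cluster 9, at -0.93, had an interval crossing 0. Kdr and Flt1 were seen together in 468 of 3477 and 93 of 3144 macrophages with at least 3000 UMIs. Of these macrophages, 1675 and 987 had a Kdr UMI and 769 and 233 a Flt1 UMI. Flt1 was seen in 27.9% and 9.42% of the cells with Kdr and in 16.7% and 6.49% of those without it. Depth was not matched between these groups, and its part in the gap was not tested.

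**Figure D4:**
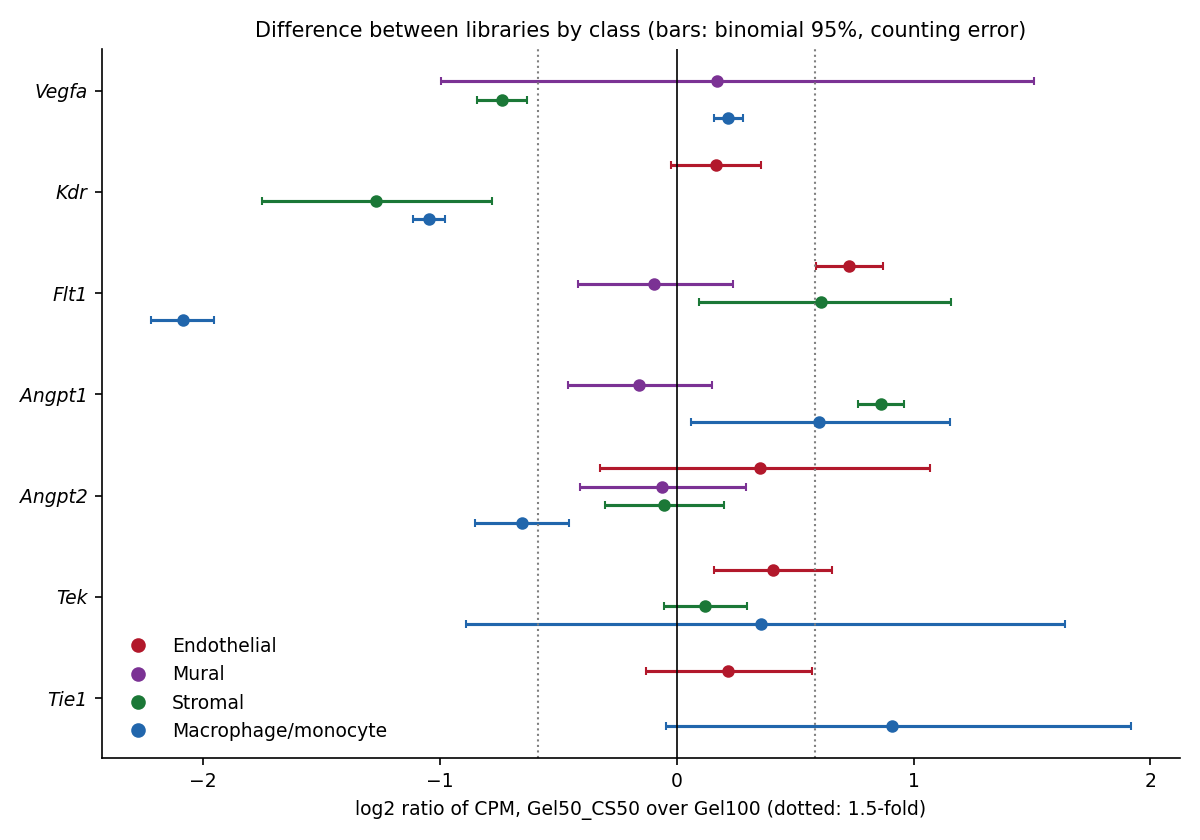
Log2 ratio of CPM, Gel50_CS50 over Gel100, of the 7 genes in endothelial, mural, stromal and macrophage or monocyte cells, with exact binomial 95% intervals (counting error only) and dotted lines at 1.5-fold; a ratio is drawn only where each library held over 3 UMIs. Flt1 lay at 0.73 in endothelial cells and at -2.09 in macrophages, and stromal Vegfa and Angpt1 lay on opposite sides of 0.

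Mural Flt1 came to 219.9 CPM (180 to 266; 106 UMIs) and 206 CPM (184 to 229.7; 320 UMIs), with a ratio of -0.09 (-0.42 to 0.24). The Gel100 value rested on 1 cell, which held 71 of the 106 UMIs. Without the cell with the most Flt1 in each library the levels were 83.8 and 171 CPM, from 35 and 257 UMIs. A Flt1 UMI was seen in 10 of 18 and 36 of 51 mural cells with at least 3000 UMIs, and the mural cells with the most Flt1 held 2083 and 558 mural marker UMIs and 35 and 7 endothelial ones. Neutrophils held 15.5 and 15.03 CPM, and stromal cells 3.29 and 5.03 CPM.

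Tek, the receptor for both angiopoietins, was highest in endothelial cells, and its other source was a part of the stroma. Endothelial cells held 317 CPM (272 to 368; 178 UMIs) and 420.0 CPM (385 to 457; 532 UMIs), a log2 ratio of 0.40 (0.16 to 0.66), or 0.34 (0.08 to 0.60) without the barcodes high in markers of another type. With each cell thinned to 3000 UMIs the ratio was -0.47 (-1.14 to 0.23), so the direction was not kept at equal depth, where few UMIs were left. Stromal cells held 30.0 CPM (26.9 to 33.4) and 32.6 CPM (30.8 to 34.5), with a ratio of 0.12 (-0.05 to 0.30). Mural cells held 0 and 2 UMIs, and macrophages 0.172 and 0.221 CPM.

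Stromal Tek lay almost wholly in cluster 15. Its level there was 54.8 CPM (48.9 to 61.2) and 68.3 CPM (64.5 to 72.3), against 4.598 and 2.23 CPM in cluster 14, a step of 11.9-fold (7.92 to 18.7) and 30.7-fold (22.8 to 42.3). A Tek UMI was seen in 55 of 103 and 176 of 297 cluster 15 cells with at least 3000 UMIs, and 27 and 101 of these also held UMIs of Angpt1 and Vegfa. Angpt1 was seen in 60% and 65.9% of the cells with Tek and in 56.25% and 78.5% of those without it. For Vegfa the shares were 80% and 84.7% with Tek and 83.3% and 92.6% without it. Depth was not matched between these groups. Cdh5 was at 9.44 and 8.78 CPM and Pecam1 at 4.81 and 6.22 CPM in the stromal class. By count the stroma was the larger source: stromal cells held 62.5% and 68.4% of the Tek UMIs of a library, and endothelial cells 33.0% and 29.5%.

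Tie1, the endothelial partner of TIE2, was found mainly in endothelial cells. They held 169 CPM (137 to 207; 95 UMIs) and 197 CPM (173 to 223; 249 UMIs), with a log2 ratio of 0.21 (-0.13 to 0.57) whose interval crossed 0. Mural cells held 3 and 2 UMIs, 27.2-fold (9.04 to 134) and 153-fold (41.9 to 1269) below. The highest of the other named classes was that of neutrophils, with 4 UMIs in Gel50_CS50 (0.607 CPM). Endothelial cells held 77.2% and 81.4% of the Tie1 UMIs of a library, the highest endothelial share among the 7 genes in both.

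The 4 receptors were seen together in most endothelial cells. Among those with at least 3000 UMIs, 17 of 22 and 40 of 49 had a UMI of all 4, and none lacked all 4. Kdr was seen in 20 of 22 and 48 of 49 cells, Flt1 in 19 and 49, Tek in 20 and 45, and Tie1 in 19 and 44. All of the Angpt2-positive endothelial cells (9 and 15) also had a Kdr UMI. Per cell, Kdr had a median of 4.34 and 5.98 UMIs per 10000, Tek of 2.94 and 3.64 and Tie1 of 1.73 and 1.83.

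**Figure D5:**
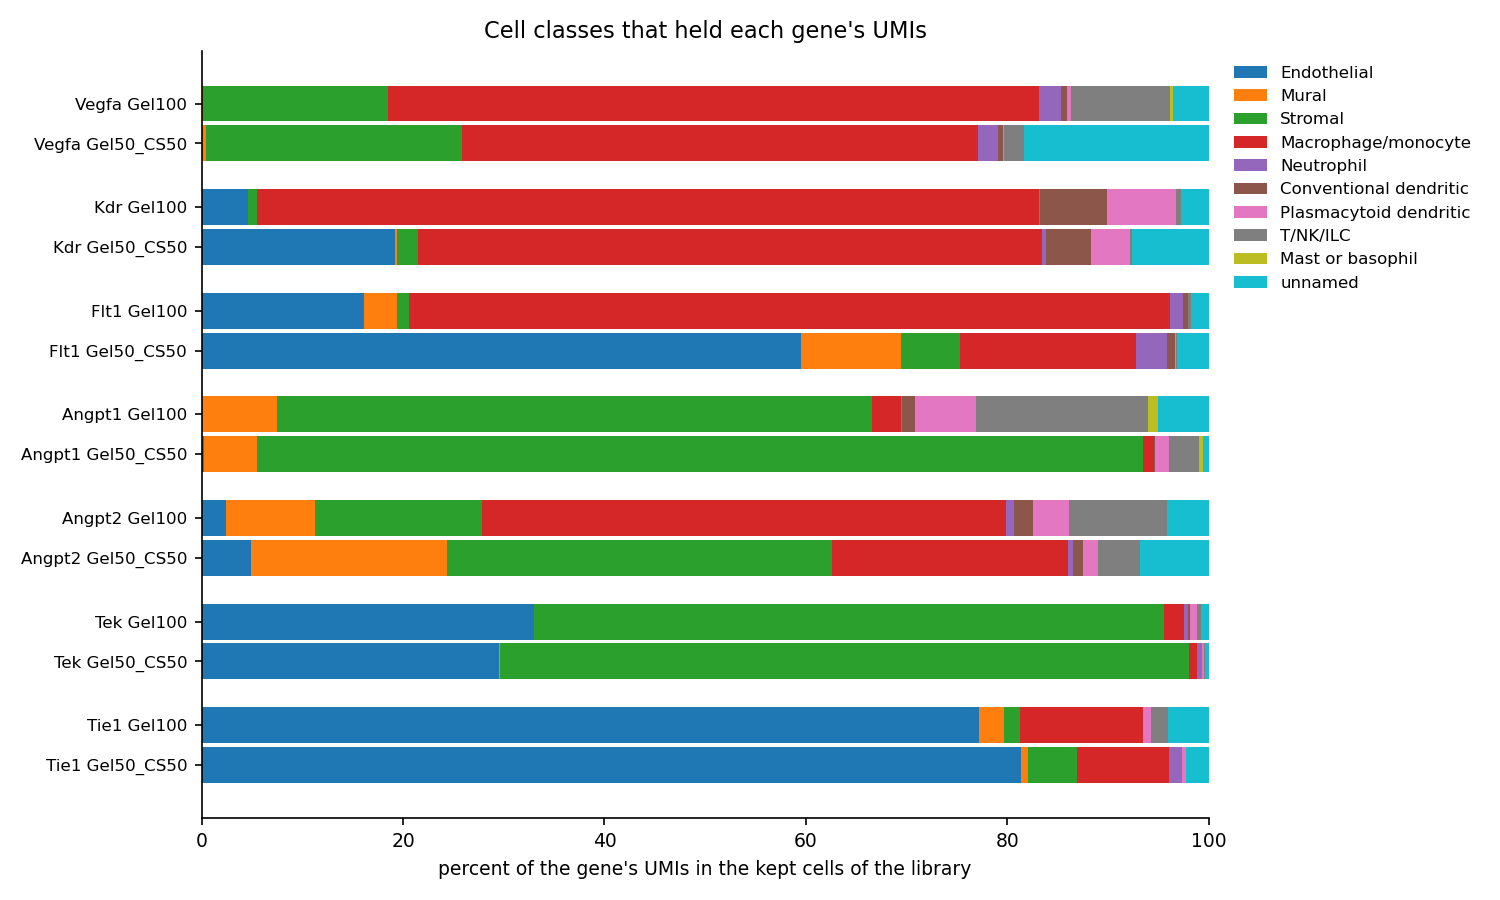
Share (percent, axis from 0 to 100) of each gene's UMIs that came from each cell class, in the kept cells of each library. The endothelial share of Flt1 was 16.1% in Gel100 and 59.6% in Gel50_CS50, and the stromal share of Angpt1 was 59.0% and 88.0%.

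The class that supplied most UMIs of a gene changed between the libraries for Flt1 and Angpt2. For Flt1 macrophages held 75.6% in Gel100 and 17.5% in Gel50_CS50, where endothelial cells held 59.6%. For Angpt2 macrophages held 52.1% and 23.4%, and stromal and mural cells together made the larger part in Gel50_CS50 with 38.3% and 19.4%. The macrophage Angpt2 level did not exceed that of T, NK and innate lymphoid cells (9.33 and 10.7 CPM), and the part of stray RNA in this share was not tested. Vegfa came mostly from macrophages in both (64.6% and 51.2%), with cluster 9 adding 2.09% and 17.6%, and stromal cells 18.4% and 25.5%. These shares follow the class sizes as well as the levels, and stromal cells were 3.57% and 9.83% of cells.

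The rest of the pathway was read from 9 lists of 78 genes. In endothelial cells 53 were measured at 20 CPM or more, of which 17 were higher and 10 lower in Gel50_CS50 by over 1.5-fold, against 9.69% and 15% of all genes. Without the barcodes high in markers of another type the counts were 15 and 9 of 52, and 24.8% of all genes went beyond 1.5-fold. The lists most on the higher side were the VEGF-induced genes, with 5 of 6 measured, and the antiangiogenic factors, with 5 of 7, and the list most on the lower side was that of hypoxia genes, with 4 of 11 and none higher. That list was less one-sided, with 2 higher and 3 lower of 11, when the mixed barcodes and cells under 3000 UMIs were both left out. Median log2 ratios were 1.11, 1.38 and -0.46 for these lists and -0.05 over all genes of the class.

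Among the VEGF-induced genes, Nr4a2 went from 48.1 to 154 CPM (log2 ratio 1.68), Klf4 from 69.5 to 163 CPM (1.23), Dusp5 from 16.05 to 35.5 CPM (1.15), Rcan1 from 41.0 to 86.1 CPM (1.07) and Nr4a1 from 51.7 to 100.3 CPM (0.96). Rcan1 encodes an inhibitor of calcineurin that VEGF switches on. Nr4a1, Nr4a2 and Klf4 are early response genes that many other stimuli, cell dissociation among them, also induce. The count was 6 of 7 without the barcodes high in stromal or lymphatic markers. The median share of mitochondrial UMIs was 1.19% and 3.21% in the endothelial class, and its part in these ratios was not tested. In cells with at least 3000 UMIs, whose median depths were 22421.5 and 20042 UMIs, 5 of 6 were higher, and 6 of 7 when the mixed barcodes were left out too.

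The antiangiogenic list depended on which barcodes were counted. Adamts1, a protease that binds VEGF-A, stood at 116 and 322 CPM (1.47, and 1.63 without the mixed barcodes) and Timp3, an inhibitor that blocks VEGFR2, at 164 and 309.5 CPM (0.92, and 1.06). Thbs2 went from 2.85 to -0.53 without those barcodes, Serpinf1 from 3 and 77 UMIs to 3 and 3, and Igf1, of the list of other angiogenic ligands, from 2.68 to 0.84. Thbs1 went from 1.38 (0.28 to 2.67) to 0.81 (-0.36 to 2.16). The list then counted 3 higher of 5 measured, against 9.76% of all genes.

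Tip cell and Notch genes were mixed, with 1 higher and 4 lower of 13 measured, against 9.69% and 15% of all genes. Without the mixed barcodes 1 was higher and 2 were lower (7.69% and 15.4%), near the 9.76% and 15.1% of all genes. Esm1, a marker of sprouting tip cells, was at 92.7 and 15.002 CPM (-2.63), and Dll4, the Notch ligand of tip cells, at 58.8 and 30.0 CPM (-0.97; -0.73 without the mixed barcodes), while the Notch target Hes1 was at 46.4 and 78.2 CPM (0.75). Ptprb, the phosphatase that restrains TIE2, was at 563 and 887 CPM (0.66). In the signal relay list 3 of 7 were higher, against 9.69% of all genes. These were Shb (1.24), Foxo1 (168 and 276 CPM, 0.72) and Nos3 (0.62). Foxo1 encodes the transcription factor that TIE2 signalling holds in check. Flt4, the lymphatic VEGF receptor, was at 107 and 44.2 CPM (-1.27), and at 67.4 and 51.7 CPM (-0.38) without the Gel100 cell high in lymphatic markers and the 3 Gel50_CS50 barcodes high in stromal markers. Of the hypoxia list, Pgk1 was at -0.84, Egln1 at -0.80 and Aldoa at -0.65, and Ccn1, a matrix protein of the other angiogenic ligands, at -0.83.

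In stromal cells 5 genes of the lists were higher and 5 lower by over 1.5-fold of 46 measured, in a class where 1.39% and 2.69% of all genes were. Svep1, a matrix protein that binds TIE1, was at 45.0 and 109 CPM (1.27), Nid2 at 22.5 and 47.0 CPM (1.06) and Cxcl12 at 142 and 238 CPM (0.74), while Jag1, a Notch ligand, was at 128 and 63.2 CPM (-1.02) and Timp3 at 277 and 143 CPM (-0.96). Igf1 (-0.87), Egr3 (-0.85) and Thbs1 (0.73) were the others named. The hypoxia list had 0 of 12 beyond 1.5-fold in either direction, in a class where only 4.07% of all genes were, and a median log2 ratio of -0.07.

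Mural cells had 4 genes higher and 9 lower of 38 measured, in a class where 10.4% and 14.4% of all genes were. The largest were Ccn2, a matricellular growth factor partner (483 and 119.7 CPM, -2.01), and Serpinf1 (47.7 and 184 CPM, 1.95), followed by Foxo1 (-1.31), Klf4 (1.16), Slc2a1 (-1.14), Thbs1 (-1.12), Thbs2 (1.04) and Fgf1 (-0.79). Stromal markers summed to 5690 and 14415 CPM in the same mural cells, and their part in these ratios and in mural Angpt1 was not tested. In macrophages Nr4a2 (59.6 and 92.5 CPM, 0.63) was the only gene of 30 measured beyond 1.5-fold, in a class where 2% of genes were higher by that much.

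The genes most like each member were read over 17 sums of UMIs (a class in 1 library, at least 20 cells) among 7618 genes, as Pearson's r of log2(CPM + 10). The sums of a class in the 2 libraries share their cell type, so the values are descriptive. Tie1 was followed by Grrp1 (0.999), Mmrn2 (0.997) and Robo4 (0.993), of which Mmrn2 is 1 of the endothelial markers, and Flt1 by Pcp4l1 (0.980), Slc9a3r2 (0.964) and Esam (0.962), also an endothelial marker. Tek was followed by Palmd, Sybu and Mdga2 (0.998, 0.997 and 0.997). Kdr had no gene above 0.902 (Abca3, then Abcc4 and Scarb1). Angpt2 was followed by Spry1, an inhibitor of growth factor signalling (0.977), Afap1l2 (0.975) and Sncg (0.969), and Angpt1 by the transcription factor gene Sox5 (0.927), the receptor gene Ror1 (0.908) and Galnt16 (0.887). Vegfa was followed by Tent5a (0.911) and the glycolytic genes Hk2 (0.866) and Gapdh (0.829).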

How the data were processed

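Single-cell RNA was measured in 2 samples with the 10x Chromium 3′ v3 chemistry, per the labels' protocols. The authors deposited 1 filtered matrix of UMI counts per sample, made with Cell Ranger 6.0.2 per the file headers and with mm10 per the submitters' processing notes. The annotation release, the use of strand and any inclusion of intronic reads are not given in the sources used here. Gene positions were taken from GENCODE vM21, which holds 99.6% of the identifiers. Because the matrices hold counts per gene and not per transcript, isoforms of Vegfa and soluble and full-length Flt1 cannot be told apart.

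Barcodes needed 200 or more genes, 500 or more UMIs and a mitochondrial share below 20% (65 and 117 removed), and Scrublet removed 179 (2.30%) and 192 (2.60%) doublets. Cells of both libraries were clustered together with scanpy 1.11.5 and leidenalg 0.10.2 (3000 variable genes without the 7 genes and the pathway lists, 30 components, 15 neighbours, resolution 1.0). A cluster joined a class with a marker score of at least 1.5, a lead of 0.5, at least 3 markers in 10% of its cells and a median of at least 1000 UMIs, unless more markers of another class than of its own were among its 10 leading genes. These limits were set after the data were seen. Cluster 4, whose best list was that of osteoclasts, was counted with the macrophages. Clusters 3, 9, 22, 27 and 29 stayed unnamed, and cluster 3 (865 and 95 cells, median 813 UMIs) carried macrophage markers at low depth.

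Summed counts were scaled to CPM, and ratios, binomial, Poisson and Clopper-Pearson intervals were computed with scipy 1.17.1, with a floor of 3 counts for a count of 0. edgeR 4.0.16 supplied only TMM scaling factors. The calculations were tested on simulated data. A gene was counted as beyond 1.5-fold if its mean was at least 20 CPM. The 7 members were described in every class. Of the 78 pathway genes, those beyond 1.5-fold with an interval clear of 0 were named, up to 8 per class, and the leading gene of lists in endothelial cells. Likeness used the 3 highest correlations. Members and lists were chosen with earlier results of these data known, and the exclusion of mixed endothelial barcodes (over 50 stromal or 10 lymphatic marker UMIs per 10000) and of the mural cell with the most Flt1 was chosen after seeing the data. The other alternatives changed the cell filter, doublets, depth, clustering, gating, weighting and scaling.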

Additional observations from a re-analysis of the deposited data

Results flagged for a closer look

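Flt1 had ratios of opposite sign between classes of the same libraries. The log2 ratio of Gel50_CS50 over Gel100 was 0.73 in endothelial cells and 0.61 in stromal cells, where Flt1 was below 6 CPM, and -2.09 in macrophages and monocytes. Vegfa also had opposite signs, at 0.22 in macrophages and monocytes and -0.74 in stromal cells. Each of these intervals lay on 1 side of 0, but with 1 library per scaffold the difference between classes was not tested.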

How the results depend on the processing

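Of 123 alternative values for 10 ratios, 121 kept their direction. The exceptions came with cells thinned to 3000 UMIs, where endothelial Tek was -0.47 and endothelial Tie1 -0.04, and few endothelial UMIs were left. Values that moved past the counting interval were as follows. Thinning gave -0.99 for stromal Vegfa, 0.76 for stromal Angpt1 and -1.88 for macrophage Flt1. Weighting cells equally gave 0.74 for stromal Angpt1 and 0.79, 1.53 and 0.66 for endothelial Kdr, Flt1 and Tek, all past 1.5-fold. With 50 principal components these 3 were 0.44, 1.02 and 0.68, and macrophage Kdr was -1.15. Keeping called doublets gave 0.043, -1.17 and -2.36 for macrophage Vegfa, Kdr and Flt1, the gate on single cells gave 0.30, -1.24 and -2.24, and equal cluster shares gave -0.45 and -1.36 for Kdr and Flt1, the first under 1.5-fold. Adding cluster 9 gave 0.30 for Vegfa and -1.22 for Kdr. Resolution 2.0 gave -1.17 and -2.62, and clustering with the members included -1.18 and -2.46, for Kdr and Flt1, and a 10% mitochondrial limit gave -1.16 for Kdr. The cause of these moves was not tested. The percent of genes beyond 1.5-fold was 13.3 in endothelial and 15.4 in mural cells when only genes averaging 100 CPM or more were counted, and 17.3 in stromal cells and 19.8 in macrophages with no limit. No paired analysis was possible because each scaffold has 1 library, and for the same reason no replicate could be left out. Depth limits the endothelial values most, with 42 of 64 Gel100 cells under 3000 UMIs.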

Other observations

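Mast cells or basophils (14 and 36 cells, median depths of 1019.5 and 1045 UMIs) held 17 and 28 Angpt1 UMIs (371 and 228 CPM) and 15 and 6 Vegfa UMIs (327 and 48.8 CPM). These cells are too few and too shallow to place beside the other classes. In cluster 14 the Tek level was 4.598 and 2.23 CPM, while Flt1 was 3.49 and 8.70 CPM with a log2 ratio of 1.32, and in cluster 15 Flt1 was 3.17 and 0.75 CPM with a log2 ratio of -2.08. Over the 9 macrophage clusters, the level of Vegfa and the summed level of the hypoxia list had a Pearson's r of 0.60 in Gel100 and 0.49 in Gel50_CS50, given as a description because the clusters share their library.

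Unnamed cluster 3, with 865 cells of Gel100 and 95 of Gel50_CS50, held Kdr at 92.9 and 23.3 CPM (149 and 9 UMIs) and Flt1 at 22.4 and 13.0 CPM (36 and 5 UMIs). Kdr was thus lower in Gel50_CS50 there too, with a log2 ratio of -1.99 (-3.15 to -1.03).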
